A study of Homo sapiens with 4 samples.

Results

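The RNA of MV4-11 cells carrying the hairpin labelled RUNX1 knockdown profound 2 was set against that of cells carrying a control hairpin, gene by gene. MV4-11 is a human cell line grown from an acute myeloid leukaemia of monocytic character, in which KMT2A is fused to AFF1. A hairpin is a short folded RNA that the cell processes to silence a matching transcript. Every group, the control included, received a hairpin by transduction and was cultured with doxycycline at 3 µM over 24 h. The control hairpin is directed at luciferase, which human cells lack. The series holds 4 arrays, 1 for each of 4 hairpins: control, moderate, profound 1 and profound 2. The labels name neither a vector nor a clone, and each RNA is that of a cell population with 1 hairpin.

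Members of the comparison were genes with a signal of 4.5 log2 units or more in the control array, the profound 2 array or both. Signals are log2 values made by RMA, which corrects background, equalises the arrays and combines the probes that make up each probe set. Of 22357 genes that have a probe set with 1 gene symbol, 9515 were members (42.6%). A gene with several such probe sets was read from the one with the highest mean. The level rule kept 9007 genes at 4.5 or more in both arrays, 278 in the control array alone and 230 in the profound 2 array alone. RNU7-72P (4.50025 at its higher array) and PCGF2 (4.50075) lay just inside the level, and MIR3132 (4.49968) and B9D1 (4.49996) just outside. Protein-coding genes made up 8670 members, and the other 845 were small RNAs, long non-coding RNAs and pseudogenes.

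RUNX1 is a transcription factor of blood formation. Its Runt domain binds short DNA sites with the core letters TGTGGT or TGCGGT, together with the non-DNA-binding partner CBFB. Depending on the site it recruits activators such as EP300 or repressors of the TLE family, and it is required for the emergence of blood stem cells and for the maturation of myeloid, lymphoid and megakaryocytic cells. RUNX2 and RUNX3 share the Runt domain and the partner.

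The targeted gene was read first. The probe set for RUNX1 is also assigned to LOC100506403, so its signal is not specific. It was 4.27 in control, 4.33 in moderate, 4.07 in profound 1 and 4.04 in profound 2. Profound 2 thus lay 1.17-fold below control, a log2 difference of -0.22. The spread of moderate minus control was 0.22 for members with a mean signal under 5. This probe set read below 4.5 in all 4 arrays, so it is not among those members, and no spread was measured at its level. The signal does not bear out the label, but a probe set this dim and shared cannot show whether RUNX1 RNA was reduced. The array is named by its label throughout. The descriptions of the arrays labelled profound 1 and profound 2 give RUNX2 and RUNX3 as the targets, in conflict with the RUNX1 of their titles and genotypes. RUNX3 itself read 8.17, 8.28, 7.75 and 7.74 in the control, moderate, profound 1 and profound 2 arrays, so that both arrays labelled profound lay below the other pair, profound 2 by 0.43 log2 units below control. RUNX2 read 6.23, 6.16, 6.17 and 6.33 in the same order, a difference from control of -0.06 in profound 1 and 0.10 in profound 2. CBFB was 0.19 log2 units above control in profound 2.

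There was 1 array per group, so no difference has a replicate check, no test was made and no p-value is given. Precision is limited by the single array on each side. A gene was counted as higher or lower where it differed by at least 1.5-fold, and 2-fold served as the larger rule. As a yardstick, moderate minus control had a robust SD (the median absolute deviation, scaled) of 0.22 log2 units for members with a mean signal under 5, 0.16 from 5 to 7, 0.12 from 7 to 9 and 0.094 above 9. It contains both noise and whatever real difference the moderate hairpin made. The medians of the 4 arrays over all probe sets lay between 3.07 and 3.09. All comparisons with control share the same control array.

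Most genes differed little between the profound 2 array and the control array. The surface enzyme gene CD38, the gluconeogenic enzyme gene FBP1, the IgE receptor gene FCER2 and the pentraxin gene PTX4 were among the genes with the largest excess in profound 2, and the chemokine receptor gene CXCR3 and several zinc finger genes among those with the largest deficit. Of the 9515 members, 202 differed by 1.5-fold or more (2.12%). They divided into 100 higher (1.05%) and 102 lower (1.07%). At 2-fold, 7 were higher (0.0736%) and 4 lower (0.042%). The same rule counted 98 members in moderate against control (1.03%) and 717 in profound 1 against control (7.54%). The median difference of profound 2 was -0.01 log2 units and its robust SD 0.174, against 0.150 for moderate and 0.265 for profound 1. In bulk RNA, fewer cells of a type and less RNA per cell cannot be told apart, and a change of total RNA per cell is removed by the equalisation of the arrays.

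Differences of 1.5-fold were more frequent in probe sets of low signal. Members with a mean under 5 held 44 of the 100 higher genes and 55 of the 102 lower genes. Of members with a mean under 5, 7.52% differed by 1.5-fold, against 1.85% from 5 to 7, 0.544% from 7 to 9 and 0.297% above 9. Above 9, 2 of 674 members differed by 1.5-fold, CD68 and APLP2. APLP2, an amyloid precursor-like protein gene, was chosen here after its values were seen. It read 9.70 in control, 9.89 in moderate, 10.53 in profound 1 and 10.42 in profound 2. Of the 100 higher genes, 38 read below 4.5 in control, and of the 102 lower genes, 50 read below 4.5 in profound 2. Such dim genes are members only through the array in which they are high, so the level rule itself raises the share under 5. With the moderate array as the reference instead of control, 91 genes were higher and 146 lower, and these contained 34 of the 100 and 50 of the 102. Just past 1.5-fold lay PER1 (0.586) and NDFIP1 (0.586) on the higher side and OXER1 (-0.586) and POM121L6P (-0.587) on the lower. Just short of it lay LINC01134 (0.582), PIMREG (0.583), GAPT (-0.584) and NAB2 (-0.584).

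**Figure D1:**
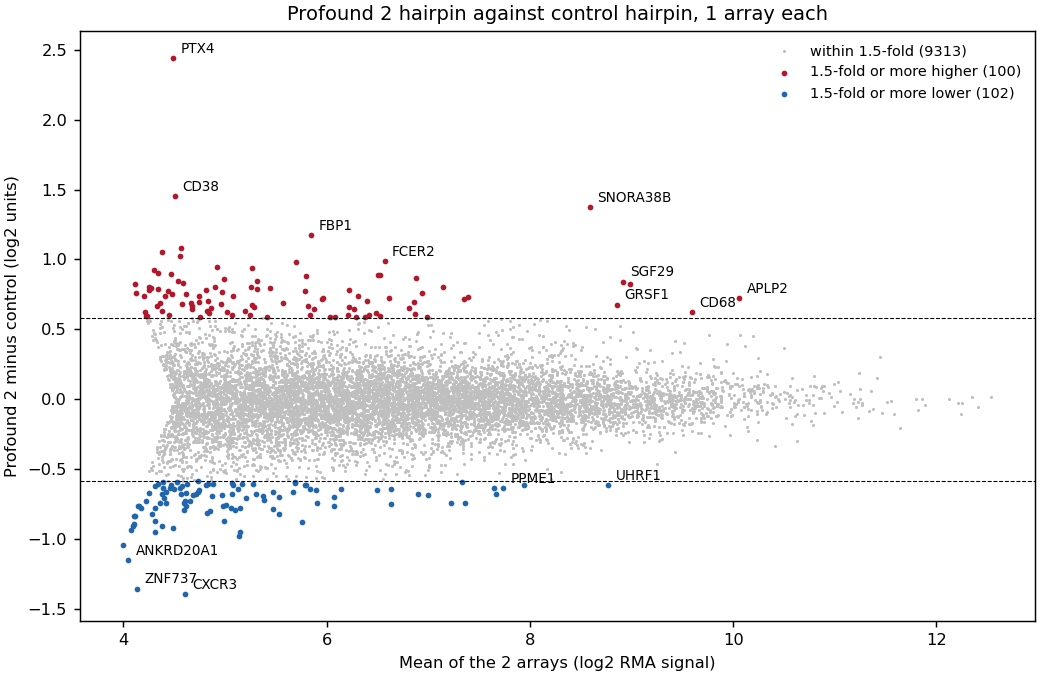
Each point is 1 of 9515 members, with the mean of the control and profound 2 arrays on the x axis and profound 2 minus control on the y axis, both in log2 units. Dashed lines mark 1.5-fold, red points the 100 genes above it and blue points the 102 below. The median of their mean signal was 4.99, against 6.48 for all members.

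Of protein-coding members, 73 were higher by 1.5-fold (0.842%) and 68 lower (0.784%). PTX4, a member of the pentraxin family of pattern-binding proteins, differed the most. It read 3.27 in control, 3.49 in moderate, 3.48 in profound 1 and 5.71 in profound 2, which is 5.43-fold above control. The other 3 arrays lay close together and below the level of 4.5.

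Surface and secreted molecules of immune cells were found among the 15 protein-coding genes with the greatest excess. CD38, an ectoenzyme that consumes NAD and marks stages of blood cell development, read 3.78 in control, 3.73 in moderate, 4.79 in profound 1 and 5.23 in profound 2 (2.73-fold above control). FCER2, the low-affinity IgE receptor of B cells and monocytes, read 6.08, 5.53, 7.01 and 7.06 in the same order (1.98-fold). For both genes the 2 arrays labelled profound were high and the control and moderate arrays low. CD38 is the dimmer of the pair, below 4.5 in control and moderate, and is a member only through profound 2. HLA-DRA, the alpha chain of the antigen-presenting HLA-DR molecule, read 6.44, 6.85, 7.19 and 7.31 (1.83-fold). Its 6 other probe sets lay 0.72 to 0.89 log2 units above control, though they measure copies of 1 gene and are not independent. CCL23, a chemokine that attracts monocytes and resting T cells, read 4.56 in control, 4.57 in moderate, 5.16 in profound 1 and 5.42 in profound 2.

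Enzymes and a carrier of sugar metabolism were found there too. FBP1, the fructose bisphosphatase that opposes glycolysis, read 5.26 in control, 5.89 in moderate, 5.85 in profound 1 and 6.43 in profound 2 (2.26-fold above control). SLC2A5, a fructose transporter, read 3.84, 3.63, 4.24 and 4.76, and RPIA, an isomerase of the pentose phosphate pathway, read 6.06, 6.41, 6.65 and 6.95. Profound 2 was the highest of the 4 arrays for each of these genes. A list of sugar transport, glycolysis and pentose phosphate genes was therefore drawn up after these values had been seen. Of its 26 members 4 were higher and 0 lower, against 1.05% and 1.07% of all members. FBP1, SLC2A5 and RPIA, which prompted the list, are 3 of the 4, so the count is no evidence about the pathway. The other is PFKFB3, a kinase that raises the glycolytic activator fructose 2,6-bisphosphate (0.63 log2 units). The list's median was 0.04 log2 units, against -0.01 for all members, with 16 of the 26 above control and 10 below. Some glycolytic enzymes, chosen after their values were seen, lay below control or near it: PGAM1 (-0.22), PFKP (-0.21), ALDOA (0.01) and LDHA (0.02).

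The rest of the 15 held regulators of growth, sorting and chromatin. DEPTOR, an inhibitory subunit of the mTOR kinase complexes, read 5.35 in control, 5.79 in moderate, 6.51 in profound 1 and 6.23 in profound 2. MCOLN2, a cation channel of endosomes and lysosomes, read 4.11, 4.46, 5.05 and 4.96, and the sorting receptor gene SORL1 read 4.45, 4.69, 5.69 and 5.39. In these 3 genes profound 1 was the highest array and moderate lay between control and the arrays labelled profound. SMIM14 followed the same order at 3.89, 4.73, 5.71 and 4.79. SEL1L3 read 6.08 in control, 5.55 in moderate, 6.80 in profound 1 and 6.97 in profound 2, with moderate the lowest. ALDH3B2, an aldehyde dehydrogenase gene, was high in profound 2 (6.19) but not in profound 1 (5.02), against 5.21 in control and 5.65 in moderate. SGF29, a chromatin-reading subunit of the SAGA coactivator complex, read 8.49, 8.58, 8.57 and 9.33, so that the profound 2 array stood above 3 arrays that lay close together.

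Among lower genes, CXCR3, a receptor for interferon-induced chemokines, differed the most. It read 5.31 in control, 4.77 in moderate, 5.15 in profound 1 and 3.92 in profound 2 (2.62-fold below control). ZNF737, a zinc finger gene, read 4.81, 4.36, 4.27 and 3.46 (2.56-fold), and ANKRD20A1 read 4.62, 4.49, 4.48 and 3.48 (2.22-fold). ANKRD20A1 belongs to a family of near-identical copies, so its probe set may read other copies too. Profound 2 was the lowest array for all 3 genes, and below 4.5.

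The other lower genes of the 15 held a transporter, a lectin, a cytokinesis gene and transcription factors. SLCO4C1, an organic anion transporter, read 5.62 in control, 5.10 in moderate, 4.39 in profound 1 and 4.67 in profound 2. RACGAP1, a subunit of the centralspindlin complex of cytokinesis, read 4.55, 3.91, 3.01 and 3.61, and CLEC10A, a galactose-binding lectin of macrophages and dendritic cells, read 5.43, 5.32, 4.06 and 4.56. In these 3 genes the lowest array was profound 1. TBX1, a T-box transcription factor gene, read 5.25, 4.88, 5.00 and 4.45, with profound 2 lowest. Below control in profound 2 were also BEND6 (-0.92 log2 units), the RNA-binding protein gene RBM43 (-0.83), the kinase-binding protein gene IRAK1BP1 (-0.91), CIBAR1 (-0.84), APOL4 (-0.77) and the zinc finger genes ZNF680 (-0.94), ZNF117 (-0.87) and ZNF213 (-0.78). BEND6 was highest in moderate (5.46), above the control array (4.95), and lowest in profound 2 (4.03).

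**Figure D2:**
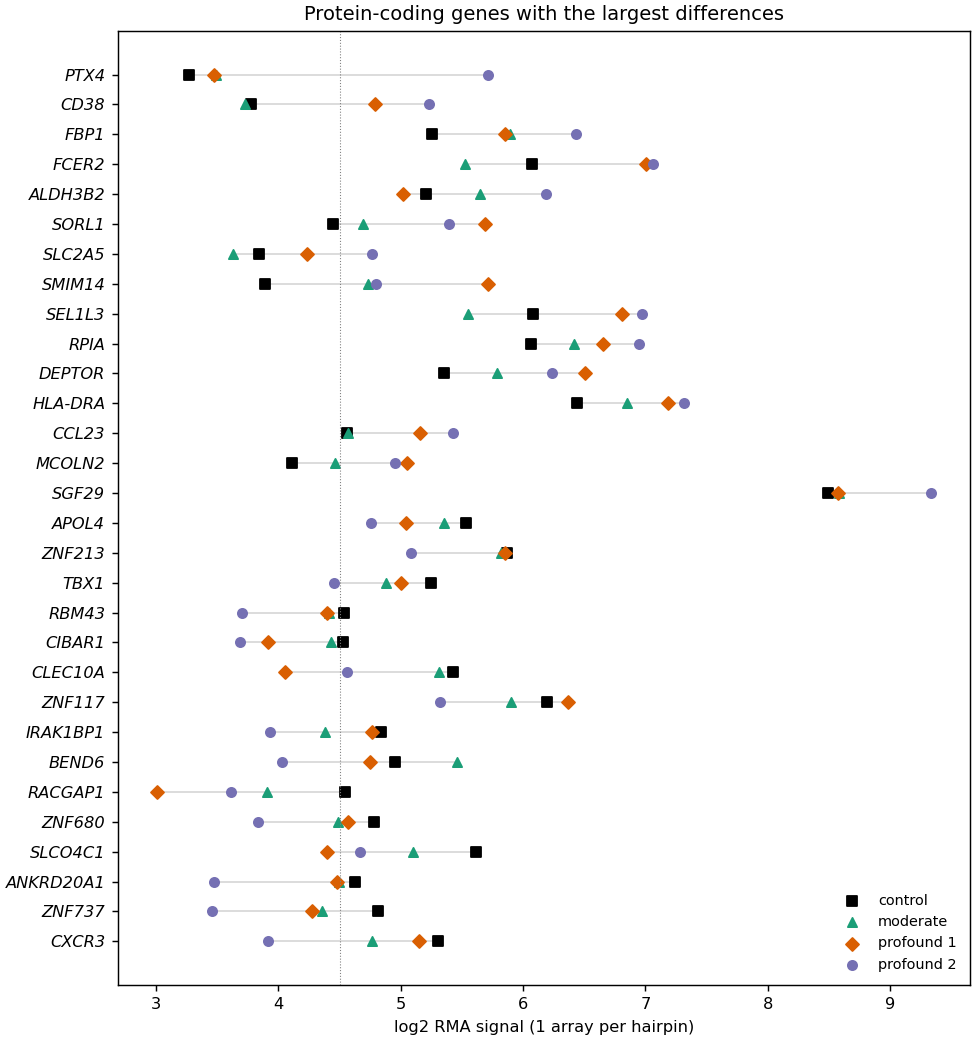
Log2 RMA signal of the 15 protein-coding genes furthest above control in profound 2 and the 15 furthest below, 1 array per hairpin; the dotted line marks the level of 4.5. Profound 2 (circles) lies apart from the control array (squares) in every row because the genes were chosen by that difference. The moderate (triangles) and profound 1 (diamonds) arrays lie between control and profound 2 in some rows and outside them in others.

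The promoters of these genes were read for the RUNX core letters, because the hairpins are labelled as directed at RUNX1. The windows are the 250 bases before the annotated start in the RefSeq table of GRCh38.p14, searched for TGTGGT and TGCGGT on both strands (the reverse complements read ACCACA and ACCGCA). A match is a description of letters, not a binding site. Of 62 higher genes with a window 9 held the letters (14.5%), and of 53 lower genes 8 (15.1%). Of 7534 members with a window 1175 held them (15.6%), and of 27305 genes that RefSeq lists with a window 4400 (16.1%). The shares in higher and lower genes lay near both backgrounds. The windows of 5 genes discussed here are given in lower case, 5′ to 3′ on the gene's strand, with core letters in capitals. FBP1 and SEL1L3 are higher genes with 1 match each, SRSF10 is a lower gene with 1 match, RUNX3 is a RUNX factor with a lower signal in both arrays labelled profound and has 2 matches, and CD38 is a higher gene with none.
FBP1, chr9:94639519-94639768, minus strand: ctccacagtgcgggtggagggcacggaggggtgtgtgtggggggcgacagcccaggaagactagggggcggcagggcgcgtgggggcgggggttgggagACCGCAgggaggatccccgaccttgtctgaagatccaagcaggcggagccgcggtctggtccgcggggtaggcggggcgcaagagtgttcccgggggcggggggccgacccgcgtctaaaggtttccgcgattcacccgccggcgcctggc
SEL1L3, chr4:25863567-25863816, minus strand: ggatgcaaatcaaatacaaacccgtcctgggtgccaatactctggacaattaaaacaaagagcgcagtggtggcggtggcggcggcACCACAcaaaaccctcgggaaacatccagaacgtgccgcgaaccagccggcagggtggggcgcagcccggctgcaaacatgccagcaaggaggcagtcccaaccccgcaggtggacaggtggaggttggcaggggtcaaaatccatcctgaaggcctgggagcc
SRSF10, chr1:23980328-23980577, minus strand: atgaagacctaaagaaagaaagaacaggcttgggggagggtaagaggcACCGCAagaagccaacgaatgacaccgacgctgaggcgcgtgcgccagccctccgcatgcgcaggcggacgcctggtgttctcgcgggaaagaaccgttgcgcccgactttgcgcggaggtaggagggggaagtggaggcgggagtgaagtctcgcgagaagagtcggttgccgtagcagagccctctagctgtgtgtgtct
RUNX3, chr1:24965011-24965260, minus strand: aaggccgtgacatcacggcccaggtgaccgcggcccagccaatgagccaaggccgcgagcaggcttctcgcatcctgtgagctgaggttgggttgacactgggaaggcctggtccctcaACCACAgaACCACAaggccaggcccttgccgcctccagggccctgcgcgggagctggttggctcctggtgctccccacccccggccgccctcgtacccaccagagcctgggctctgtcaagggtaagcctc
CD38, chr4:15778078-15778327, plus strand: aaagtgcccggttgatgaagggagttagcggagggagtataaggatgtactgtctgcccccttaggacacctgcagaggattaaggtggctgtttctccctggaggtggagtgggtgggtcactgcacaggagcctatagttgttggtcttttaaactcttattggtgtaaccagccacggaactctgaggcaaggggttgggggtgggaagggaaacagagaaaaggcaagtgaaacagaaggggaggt

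In these windows the letters of FBP1 began 151 bases before the start and those of SEL1L3 164 bases before it. SRSF10, a splicing factor gene named for its window after its values were seen, had them 202 bases before the start and read 5.38 in control, 4.94 in moderate, 5.04 in profound 1 and 4.63 in profound 2. The RUNX3 window held ACCACA 131 and 123 bases before the start, a closely spaced pair.

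A gene can differ from control because the control array stands apart, so the genes in which the profound 2 array stood 1.5-fold beyond all other 3 arrays were counted. There were 10 above (0.105%) and 27 below (0.284%). Members need a level of 4.5 in control or profound 2, which leaves out genes high in another array alone, so all arrays were also counted over the 9781 genes at 4.5 in any of the 4. There the counts above and below were 10 and 33 for profound 2, 4 and 7 for control, 12 and 12 for moderate, and 52 and 185 for profound 1. Of the members counted for profound 2, 7 of the 10 above and 20 of the 27 below were protein coding.

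PTX4 stood 2.22 log2 units above the highest other array, further than any other member. SCIMP, a transmembrane adaptor that acts with MHC class II in antigen-presenting cells, read 5.83 in control, 5.77 in moderate, 5.79 in profound 1 and 6.61 in profound 2. The other 3 arrays of SCIMP lay within a narrow band, as they did for SGF29. GAL, which encodes the neuropeptide galanin, read 5.56, 5.52, 5.29 and 6.20, and CILK1, a kinase gene of ciliogenesis, read 6.69, 6.68, 6.53 and 7.28. TGFBR3L stood 0.59 log2 units above the highest other array and OAF 0.63. A second probe set of OAF read 2.86 in control and 2.80 in profound 2 and does not share the difference. The 3 others were the small RNA pseudogene RNY3P9, the long non-coding RNA gene FAM138E and the microRNA gene MIR4450. Just below 1.5-fold beyond the others were BHLHA15, a basic helix-loop-helix factor of secretory cells (4.04, 4.19, 3.85 and 4.78), RADIL, a Rap effector gene (4.09, 3.66, 4.03 and 4.65), and RNF14, an E3 ubiquitin ligase gene (7.02, 6.97, 7.20 and 7.76).

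Below all other arrays were ANKRD20A1 (by 1.00 log2 units), CXCR3 (0.85 below the lowest other array) and ZNF737. MSI2, an RNA-binding protein of blood stem cells, read 6.45 in control, 6.62 in moderate, 6.64 in profound 1 and 5.69 in profound 2. SLC25A23, a mitochondrial carrier of ATP-magnesium and phosphate, read 6.42, 6.95, 7.08 and 5.72, and SEPTIN2, a cytoskeletal GTPase, read 7.34, 7.42, 7.65 and 6.65. For both of these the arrays labelled moderate and profound 1 lay above control while profound 2 lay below it. BEND6, RBM43, ZNF570 and ZNF213 complete the 10 protein-coding genes furthest below. Among the rest of the 27, SLC7A11, the cystine importer that feeds glutathione synthesis, had the same order as SEPTIN2 at 6.09, 6.43, 6.82 and 5.48.

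**Figure D3:**
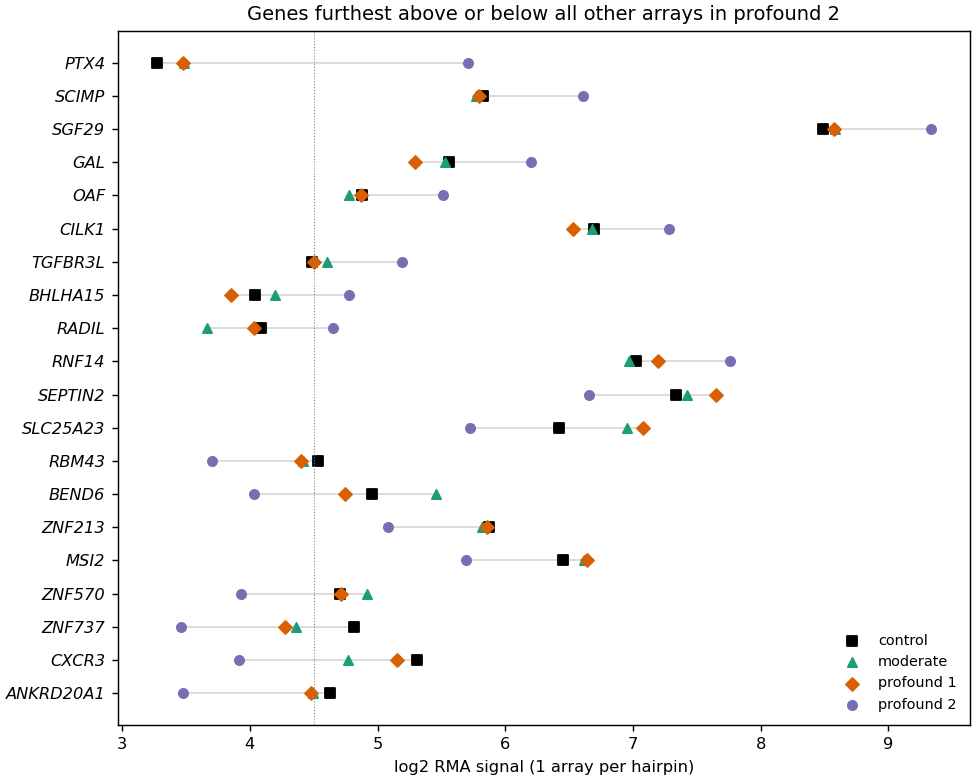
Log2 RMA signal of the 10 protein-coding genes in which profound 2 lies furthest above the other 3 arrays and the 10 in which it lies furthest below, 1 array per hairpin. The circles of profound 2 stand apart by construction, and the other 3 symbols lie close together for SCIMP, SGF29 and ZNF213 but are spread for BEND6 and SLC25A23.

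Zinc finger genes recurred among the lower genes and were then counted as a family, chosen after these values were seen. Most genes with a ZNF symbol encode DNA-binding proteins with arrays of C2H2 zinc fingers, many of which repress transcription through a KRAB domain, and many lie in clusters on chromosome 19. Of 304 members with a ZNF symbol, 16 were lower by 1.5-fold (5.26%) and 3 higher, against 52 lower of 8366 other protein-coding members (0.622%). Their median was -0.13 log2 units in profound 2, against -0.01 for the other protein-coding members, and 212 of the 304 lay below control (69.7%, against 52.5%). The median of the ZNF genes was 0.02 in moderate and 0.03 in profound 1. Profound 2 was the lowest of the 4 arrays for 146 ZNF genes (48.0%), against 24.9% of the other protein-coding members. The median of profound 2 was also below 0 against the moderate array (-0.15) and against profound 1 (-0.12). As the family was chosen for these values, they are a description.

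The shift of the ZNF genes was present on chromosome 19 and elsewhere. The 147 on chromosome 19 had a median of -0.17 log2 units and the 157 on other chromosomes one of -0.08, while 584 other protein-coding members on chromosome 19 had one of 0.01. By level, the medians were -0.13 for ZNF genes with a mean signal under 5, -0.13 from 5 to 7 and -0.09 from 7 to 9, against -0.03, -0.01 and -0.01 for other protein-coding members. ZNF213 read 5.87 in control, 5.82 in moderate, 5.85 in profound 1 and 5.08 in profound 2. ZNF570 read 4.70, 4.92, 4.71 and 3.93, and ZNF836 read 5.80, 5.93, 6.11 and 5.14. In these 3 genes profound 2 was below a set of close values. ZNF567 read 7.23, 7.16, 6.86 and 6.56, with profound 1 below control too. The exceptions on the higher side were ZNF792 (0.74), ZNF804A (0.69) and ZNF25 (0.59). ZNF genes share similar finger sequences, and probes of 1 gene may read another.

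**Figure D4:**
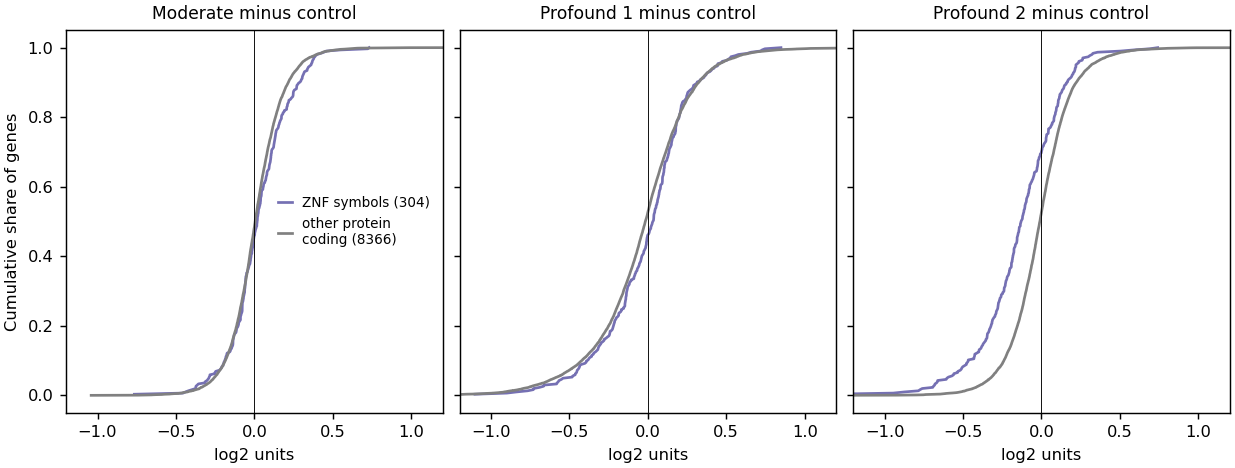
Cumulative share of genes (y axis) by difference from control in log2 units (x axis, drawn from -1.2 to 1.2), for 304 members with a ZNF symbol and 8366 other protein-coding members, in the moderate, profound 1 and profound 2 arrays. The curves run close together for moderate and profound 1, and the ZNF curve lies to the left for profound 2, where its median is -0.13 against -0.01.

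Gene lists of pathways and cell programmes were described next, each by its counts beside the backgrounds of 1.05% higher and 1.07% lower. Some counted genes are members only through the array in which they are high. Among them are CD38, MCOLN2, DDIT4 and SLPI, below 4.5 in control, and KIT, RACGAP1 and PHLDA1, below 4.5 in profound 2. RUNX and CBF genes had 0 of 11 members at 1.5-fold, with RUNX3 lowest (-0.43 log2 units) and the corepressor genes TLE1 (-0.28) and TLE4 (0.26) on opposite sides. RUNX1-linked myeloid genes had 1 of 11 members higher, PRKCB, a protein kinase C gene (0.60), and 0 lower. The granule enzyme genes MPO (0.38) and ELANE (0.37) were next, and the list's median was 0.03. PRKCB read 6.12 in control, 6.38 in moderate, 6.56 in profound 1 and 6.72 in profound 2.

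Monocyte and macrophage genes had 1 of 11 members higher and 0 lower, with a median of 0.19 log2 units and 9 members above control. CD68, a glycoprotein of macrophage lysosomes, read 9.28 in control, 9.14 in moderate, 9.98 in profound 1 and 9.91 in profound 2. MS4A7, a membrane protein of mature monocytes, was 0.45 above control and CCR2, the receptor for CCL2, 0.28. The moderate array had a median of 0.29 for the same list, and with that array as the reference the median of profound 2 was -0.11. Granulocyte and primary granule genes had 1 of 12 members higher, the elastase inhibitor gene SLPI (0.83), and 1 lower, the cystatin gene CST7 (-0.75), with a median of 0.18, which was -0.04 against moderate. Myeloid transcription factors had 0 of 14 members at 1.5-fold and a median of -0.01, with EGR1 (-0.52) and CEBPD (0.34) furthest out.

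Among surface and signalling genes, B-lymphoid and activation surface antigens had 2 of 6 members higher, CD38 and FCER2, and 0 lower. CD72, an inhibitory receptor of B cells in the same list, lay at -0.51, reading 4.61 in control, 5.25 in moderate, 3.84 in profound 1 and 4.10 in profound 2. The list was drawn up with CD38, FCER2 and CD72 known from these arrays, so its count is no independent evidence. MHC class II genes had 1 of 5 members higher, HLA-DRA. The transactivator gene CIITA was at 0.30 and the invariant chain gene CD74 at 0.18, and the median of 0.18 became -0.01 against moderate. C-type lectin and sialic acid receptors had 1 of 6 members lower, CLEC10A, with SIGLEC7 at -0.50 and SIGLEC10 at -0.24 and a list median of -0.20. Cytokine receptors had 1 of 20 members lower, KIT, the stem cell factor receptor (5.07, 4.59, 4.30 and 4.42), with the interleukin 7 receptor gene IL7R at -0.57 and CSF3R at 0.26. Chemokines, sphingolipid and chemoattractant receptors had 0 of 8 members at 1.5-fold, the platelet-activating factor receptor gene PTAFR being at 0.56 and the oxysterol receptor gene GPR183 at -0.46. Integrins had 0 of 8, with ITGA4 at 0.48, ITGB1 at 0.32 and ITGB7 at -0.28.

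Haematopoietic stem cell genes had 2 of 5 members lower, MSI2 and KIT, and 0 higher, with a median of -0.57 log2 units. That median was -0.30 with the moderate array as the reference and -0.11 over 15 genes with no filter on level. The nuclear receptor cofactor gene NRIP1 was at -0.57 and the homeobox gene MEIS1 at -0.25, while LMO2 was at 0.03. MSI2 was low in profound 2 alone, whereas KIT was lower than control in moderate and profound 1 too. The HOX and MEIS programme had 0 of 7 members at 1.5-fold and a median of -0.14, with CDK6 above control (0.27) and MEF2C below it (-0.24).

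NF-kB and inflammatory genes had 2 of 10 members lower, TNF and TNFAIP3, and 0 higher, with a median of 0.04 and a mean of -0.07. TNF, an inflammatory cytokine, read 7.73 in control, 7.69 in moderate, 6.93 in profound 1 and 6.99 in profound 2. TNFAIP3, a deubiquitinase that restrains NF-kB, read 6.28, 6.32, 5.66 and 5.54. For both genes the control and moderate arrays were high and the arrays labelled profound low, while the inhibitor gene NFKBIE was 0.31 above control. MAP kinase feedback and immediate early genes had 1 of 15 members lower, PHLDA1 (-0.62), followed by EGR1 (-0.52) and ETV4 (-0.47), with a median of 0.02 and a mean of -0.14. Interferon-stimulated genes had 1 of 5 members lower, the ISG15 protease gene USP18 (-0.61), whereas IFI6 (0.23) and ISG15 (0.19) were above control.

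Cell-cycle genes were below control by small amounts. G1/S and DNA replication genes had 1 of 29 members lower and 0 higher, 27 of 29 below control and a median of -0.14 log2 units. The member at 1.5-fold was UHRF1, which maintains DNA methylation at replication forks (9.08 in control, 8.93 in moderate, 8.33 in profound 1 and 8.47 in profound 2). The helicase subunit gene MCM3 was at -0.28 and the polymerase subunit gene POLE2 at -0.26. G2/M and mitosis genes had 1 of 27 members lower, RACGAP1, 25 of 27 below control and a median of -0.08, with the proliferation marker MKI67 at -0.33 and CENPF at -0.30. In moderate the medians of these lists were -0.17 and -0.11, and in profound 1 they were -0.88 and -0.74. Against the moderate array the medians of profound 2 were 0.04 and 0.01. Of all 9515 members 5051 lay below control. CDK inhibitors had 0 of 5 members at 1.5-fold, with CDKN2A at -0.28, CDKN2D at 0.15 and CDKN1B at 0.08. The p53 targets had 0 of 19, with FAS at -0.37, DDB2 at -0.34 and TIGAR at -0.30, and apoptosis regulators 0 of 17, with the BH3-only gene BMF at -0.46, BCL2 at -0.36 and BIK at 0.24.

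Among metabolic and stress lists, cholesterol synthesis genes had 0 of 16 members at 1.5-fold, although 14 of 16 lay below control and the median was -0.16 log2 units. The sterol enzyme genes NSDHL (-0.39), MSMO1 (-0.34) and EBP (-0.33) were lowest. In moderate the list's median was -0.02 and in profound 1 it was -0.35. The mTOR and nutrient signalling genes had 2 of 18 members higher, DEPTOR and the stress-induced mTOR inhibitor gene DDIT4 (4.40, 4.52, 4.90 and 5.09), and 0 lower, with the glucose-responsive arrestin gene TXNIP at 0.56. Lysosomal genes had 2 of 18 members higher, MCOLN2 and CD68, and 0 lower, with 16 of 18 above control, the saposin precursor gene PSAP at 0.52 and a median of 0.06. ATF4 and unfolded protein genes had 1 of 20 higher, DDIT4, and 1 lower, SLC7A11, with the asparagine synthetase gene ASNS at -0.47. Glutathione and NRF2 genes had 1 of 14 lower, SLC7A11 again, with the quinone reductase gene NQO1 at -0.32 and the glutathione reductase gene GSR at 0.37.

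Lists of constitutive functions held no member at 1.5-fold. For MYC and ribosome biogenesis genes the median was 0.05 log2 units over 19 members, with NPM1 at 0.41, PES1 at 0.22 and UTP20 at -0.25. Oxidative phosphorylation genes had one of 0.04 over 18 members, with ATP5F1B furthest from control (0.19), followed by NDUFV1 (0.18) and COX5B (0.17). Cytosolic ribosomal protein genes had one of -0.02 over 16 members, within a range from -0.19 (RPL8) to 0.19 (RPS4X), with RPL14 at 0.16. Housekeeping genes had one of -0.03 over 9 members, with PPIA (0.16), GUSB (0.15) and B2M (0.13) furthest out.

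**Figure D5:**
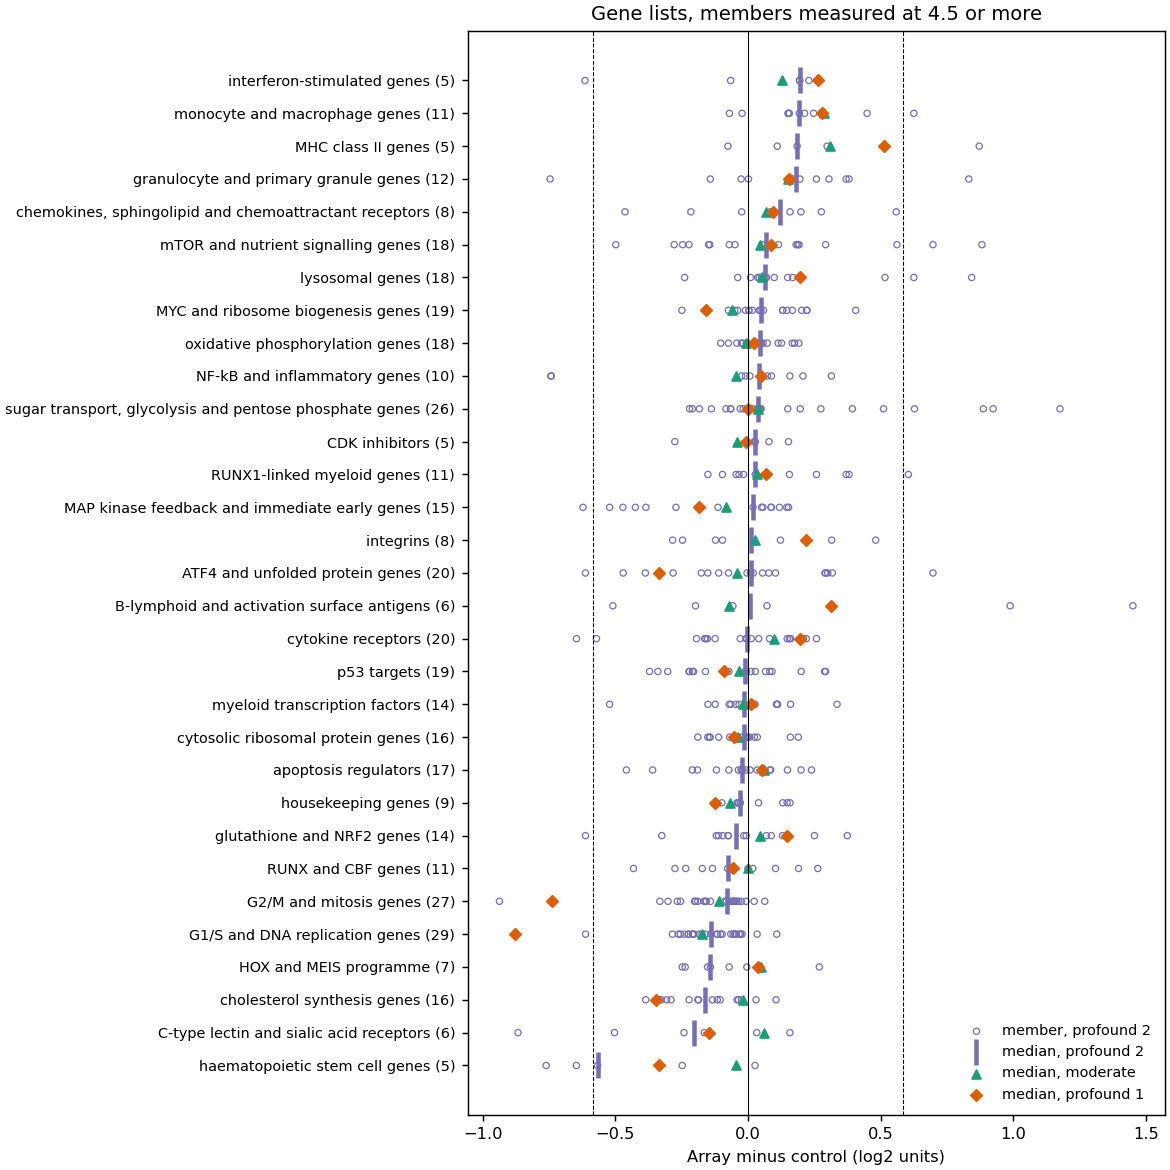
Difference from control in log2 units (x axis) for the members of 31 gene lists, with the number of members in brackets. Open circles are members in profound 2, bars their median, and triangles and diamonds the medians of moderate and profound 1; dashed lines mark 1.5-fold. Most members lie within the dashed lines, and the profound 1 medians of the cell-cycle lists (-0.88 and -0.74) lie far from those of profound 2 (-0.14 and -0.08).

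The cell line and other cell types were checked by markers. Of 12 myelomonocytic leukaemia identity genes with a probe set 10 were members, among them LYZ (between 11.34 and 11.57 in the 4 arrays), FLT3 and SPI1, whereas CD14 read 2.10 to 2.33 and ITGAM 3.78 to 3.89, below 4.5 in each array. Their mean signal was 7.14 in control, 7.23 in moderate, 7.29 in profound 1 and 7.29 in profound 2. B cell, fibroblast and epithelial lists had 0 members, with mean signals in control and profound 2 of 3.21 and 3.23, 2.37 and 2.30, and 2.82 and 2.88. Erythroid markers had 1 member, EPOR (-0.01), megakaryocyte markers 1, PF4 (0.01), and T and NK cell markers 1, NKG7 (0.14), with mean signals of 2.97 and 3.01, 3.34 and 3.40, and 3.05 and 3.10. Mast cell and basophil markers had 2 members, KIT and PRG2 (-0.22, and -0.74 in a second probe set), with 3.38 in control and 3.07 in profound 2, and dendritic cell markers 2, CLEC10A and IRF8 (0.16), with 4.05 and 3.74. All 4 arrays are of MV4-11 cells, and the cause of the lower KIT and CLEC10A signals was not tested. Beside the excess of CD38 and FCER2, the 7 B cell genes with a probe set read below 4.5 in control and profound 2, and CD79A, the highest of them, read 4.20 in control, 4.64 in moderate, 4.80 in profound 1 and 4.12 in profound 2.

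Genes of other classes were counted more often than protein-coding genes, in shares that were not matched for signal level. Among all members with a mean signal under 5 the share was 7.52%. Of 148 microRNA genes 15 differed by 1.5-fold (10.1%), of 70 genes of the RefSeq class pseudogene 14 (20%), of 175 of the class transcribed pseudogene 4 (2.29%), of 273 long non-coding RNA genes 18 (6.59%) and of 108 small nucleolar RNA genes 6 (5.56%), against 1.63% of protein-coding members. The robust SD of the difference was 0.291 for microRNA genes and 0.393 for the 70 pseudogenes, against 0.169 for protein-coding genes. SNORA38B, a small nucleolar RNA gene, read 7.90 in control, 7.02 in moderate, 8.87 in profound 1 and 9.27 in profound 2. The moderate array was the lowest and the arrays labelled profound the highest. RNA5SP67, a 5S ribosomal RNA pseudogene, was 1.08 log2 units above control, RNY3P9 1.05, FAM138E 1.03 and LOC100287704 0.94. A dim further probe set of LOC100287704 read 2.55 in control and 2.81 in profound 2, a difference of 0.26. On the lower side were SNORD1B (-1.04), LOC100134868 (-0.97), MIR1180 (-0.90), RNA5SP395 (-0.89) and RNA5SP500 (-0.87). Pseudogene copies resemble one another, and their probe sets may read several.

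Of the 15 microRNA genes counted, 7 were higher and 8 lower, and 14 had a mature sequence in the RefSeq table. The probe sets are named by the microRNA gene, and whether they read the precursor or the mature form is not given in the sources used here. The 17 mature sequences had 17 different seeds, so no seed was shared. In 3 of the genes profound 2 lay 1.5-fold beyond all other arrays, and their mature sequences follow, with the seed (bases 2 to 8) in capitals.
hsa-miR-1180-3p: uUUCCGGCucgcgugggugugu
hsa-miR-1180-5p: gGACCCACccggccgggaaua
hsa-miR-644a: aGUGUGGCuuucuuagagc
hsa-miR-4450: uGGGGAUUuggagaagugguga

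MIR1180, on chromosome 17, read 4.54 in control, 4.43 in moderate, 4.62 in profound 1 and 3.64 in profound 2. MIR644A, on chromosome 20, read 5.49, 5.45, 5.45 and 4.70, and MIR4450, on chromosome 4, read 4.24, 4.04, 4.09 and 4.99. In each the other 3 arrays lay close together. Of the remaining counted microRNA genes, MIR181D, chosen after its values were seen, read 5.60 in control, 5.60 in moderate, 6.10 in profound 1 and 6.31 in profound 2, high in both arrays labelled profound.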

How the data were processed

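The authors deposited log2 signals of 53617 probe sets on 4 arrays, made from 100 ng of total RNA by RMA. Per the submitters' processing notes, the tools were Transcriptome Analysis Console 1.0 and Affymetrix Expression Console 1.3.1, with settings and genome build not given in the sources used here. RMA equalises the arrays and draws dim probe sets toward a floor, which can understate their differences. In these arrays dim members still varied most, with a robust SD of profound 2 minus control of 0.291 under 5 and 0.098 above 9. All 4 columns of values were used (0 unused). Groups follow the genotype label.

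Probe sets with 1 gene symbol numbered 23871, with several 1842 and with none listed 27904. Symbols were updated through the RefSeq table of GRCh38.p14, with 23214 unchanged, 88 through the Entrez identifier, 565 through a synonym and 4 kept. Each gene was read from the probe set of highest mean over the 4 arrays, and 360 members had several.

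Profound 2 minus control was computed per gene, with counts at 1.5-fold and 2-fold and no test, as each group has 1 array. Each of 39 lists (30 of pathways or programmes, 9 of cell markers) and 1 list added later was described by counts and its median. Named genes were the RUNX genes and CBFB, all protein-coding genes at 2-fold, the 15 largest differences and the 10 furthest beyond all other arrays each way, up to 3 per list, the 5 largest of other classes each way, and genes at the edge of 1.5-fold. Others are said to have been chosen after their values were seen. The members, lists and rules were chosen with earlier results of these data known. Zinc finger genes were grouped by symbol. Alternatives were another level rule, normalisation (cyclic loess, limma 3.58.1 in R 4.3.3), reference array, probe set choice and fold. Python 3.11.15, pandas 2.3.3 and numpy 2.4.6 were used, and the counting was tested on simulated data. The simulation had the same noise at every level and shifted only genes at 6 or more, so it does not test changes in dim genes.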

Additional observations from a re-analysis of the deposited data

How the results depend on the processing

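No paired analysis was possible because each group has 1 array, so that the groups share a single replicate number. The count of 100 higher genes became 7 at 2-fold, 62 with a level of 4.5 in both arrays, 41 with a level of 6 and 338 with no filter. The count of 102 lower genes became 4, 52, 23 and 287 in the same order, and 55 with values below 4.5 raised to 4.5. Genes above all other arrays numbered 10, and 4 with a level of 6. Genes below all other arrays numbered 27, and 6 with a level of 6 or 13 with raised values. The 16 lower zinc finger genes became 2 with a level of 6 and 1 at 2-fold, while their median kept its sign under the 5 alternatives run. Of 67 named genes at 1.5-fold, 65 stayed at 1.5-fold after cyclic loess, 66 with the mean of probe sets, 43 with raised values and 38 with the moderate array as the reference. All 67 kept their sign under these 4 alternatives. Raising values cannot reverse a sign, and the mean of probe sets can change only genes with several, so these 2 say little about sign. A part of the 67 was named for lying furthest beyond all other arrays, the moderate array included. For those genes the sign against moderate was fixed by that choice, which also raises the count of 38. Outside the 67, NRBP2 was 0.60 log2 units above control but -0.0019 against the moderate array.

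Of 219 alternative list medians 188 moved by at most 0.1 and 21 by more, and 10 reversed among medians of at least 0.1 in size. With the moderate array as the reference these were monocyte and macrophage (-0.11), granulocyte (-0.037), G1/S (0.037), MHC class II (-0.0097) and T and NK cell lists (-0.21). With a level of 6 they were C-type lectin (0.16) and dendritic (0.16), with 1 gene each, and interferon-stimulated genes (-0.21, 2 genes). The chemokine list gave -0.057 with no filter, and interferon-stimulated genes -0.012 as a mean. The cause was not tested, except that a stricter level or fold leaves fewer genes. Dim signals limit most counts.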
